A study of Mus musculus with 48 samples.

Results

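The 35 genes described here encode enzymes of the citrate (TCA) cycle and of branched-chain amino acid and ketone oxidation. They were followed in cardiomyocyte RNA of mitochondrial-nuclear exchange (MNX) mice. The genes were taken by symbol from a list whose rule uses no measured value, although it was chosen with earlier results of these data known. All 35 were present among the 30743 gene rows and passed the filter on low counts. An MNX mouse carries the nuclear genome (n) of 1 inbred strain and the mitochondrial genome (mt) of another, here C57BL/6J (C57) and C3H/HeN (C3H). The genotypes were C57n:C57mt and C3Hn:C3Hmt, the wild-type strains, and C57n:C3Hmt and C3Hn:C57mt, the exchanged strains. Hearts were taken on day 3 after sham surgery or ACF, the study's volume overload operation, an abbreviation usually read as aortocaval fistula. Right ventricles and atria had been removed and cells released with collagenase. The labels give no age or sex. They also do not state whether each library of a group was 1 animal, and p-values therefore describe the scatter among libraries, which may be technical.

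The 48 libraries formed 2 sets of 24. Set B held 6 libraries of each of the 4 genotypes, all labelled sham, and their titles carry no surgery word. Set A held 3 sham and 3 ACF libraries for each of 4 title prefixes, C57_wt, C3H_wt, C57_MNX and C3H_MNX. The genotype labels of the exchanged libraries in set A went against their titles: C3H_MNX was labelled C57n:C3Hmt, and C57_MNX was labelled C3Hn:C57mt. A score from 33 genes higher and 20 genes lower in every C3Hn library of set B than in every C57n one, members left out, separated set A by title. It ran from 3.77 to 4.70 in the 12 libraries with C3H titles and from -3.09 to -1.94 in the 12 with C57 titles. Set A groups are therefore called by their titles below, and the mitochondrial genome of the exchanged groups in set A is not settled by these data. Total counts ran from 15.89 to 26.09 M per library. Cardiomyocyte markers were high in every library except 489, a C57_wt ACF library. The mean of 12 such markers was 8.68 log2 CPM there against 10.90 to 11.83 in the other 23 libraries of set A, and its summed erythrocyte markers reached 54900 CPM against at most 242 CPM. Counts of called members in set A are given with and without library 489, as are the values of genes whose call it changed. The titles also carry a code of L and a digit whose meaning is not stated. In set B all C57n:C57mt libraries carry L8 and all C3Hn:C3Hmt libraries L3, while each exchanged genotype has 4 libraries with L2 and the other 2 with L8 (C57n:C3Hmt) or L3 (C3Hn:C57mt). Set B groups with the same mitochondria and different nuclei therefore share no code, nor do the wild types. Fits of these comparisons with the code rest on codes shared with other groups. In set A only library 489 and library 482 of C3H_wt sham carry L7. The set A fits with the code kept library 489, and none was run without it.

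The citrate cycle oxidizes acetyl-CoA in the mitochondrial matrix and feeds electrons to the respiratory chain. Leucine, isoleucine and valine first lose their amino group to a transaminase, then a carboxyl group in the branched-chain keto acid dehydrogenase complex, and their carbon then enters the cycle as acetyl-CoA or, through propionyl-CoA, as succinyl-CoA. Ketone bodies made in the liver are oxidized in the heart by way of D-beta-hydroxybutyrate dehydrogenase and succinyl-CoA transferase. All 35 proteins are encoded in the nucleus, so the mitochondrial genome carried by a strain does not hold their coding sequence.

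The 3 members that differed between nuclear backgrounds under both mitochondrial genomes were Bdh1, Bcat2 and Mccc1, and their promoter windows are printed for that reason. Windows run from 250 bases before to 50 after each annotated start, from RefSeq on GRCm38.p6, which is not the build named for the counts. They show the C57BL/6J reference and hold no C3H sequence. Of the 35 members 31 matched a window by symbol, and Bdh1 and Bcat2 have 2 each. Capitals mark CCAAT or GGGCGG on either strand (ATTGG and CCGCCC on the other).
Bdh1 promoter window 1, chr16:31422047-31422346 (plus strand): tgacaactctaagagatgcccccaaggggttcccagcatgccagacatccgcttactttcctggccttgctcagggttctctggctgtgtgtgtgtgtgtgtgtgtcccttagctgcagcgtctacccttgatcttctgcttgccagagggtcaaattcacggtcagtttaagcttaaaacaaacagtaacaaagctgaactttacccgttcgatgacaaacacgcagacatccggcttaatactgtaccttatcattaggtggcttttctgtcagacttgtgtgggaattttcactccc
Bdh1 promoter window 2, chr16:31428503-31428802 (plus strand): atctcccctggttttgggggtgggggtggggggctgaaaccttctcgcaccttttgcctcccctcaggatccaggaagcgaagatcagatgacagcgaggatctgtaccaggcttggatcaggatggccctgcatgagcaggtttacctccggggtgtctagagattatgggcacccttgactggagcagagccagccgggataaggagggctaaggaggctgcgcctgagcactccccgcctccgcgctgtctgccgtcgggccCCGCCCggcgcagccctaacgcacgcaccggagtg
Bcat2 promoter window 1, chr7:45569903-45570202 (plus strand): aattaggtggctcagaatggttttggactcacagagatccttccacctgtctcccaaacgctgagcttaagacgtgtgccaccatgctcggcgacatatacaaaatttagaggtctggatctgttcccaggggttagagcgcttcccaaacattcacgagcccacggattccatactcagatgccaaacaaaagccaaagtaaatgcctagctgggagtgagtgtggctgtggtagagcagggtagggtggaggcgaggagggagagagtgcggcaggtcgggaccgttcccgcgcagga
Bcat2 promoter window 2, chr7:45571029-45571328 (plus strand): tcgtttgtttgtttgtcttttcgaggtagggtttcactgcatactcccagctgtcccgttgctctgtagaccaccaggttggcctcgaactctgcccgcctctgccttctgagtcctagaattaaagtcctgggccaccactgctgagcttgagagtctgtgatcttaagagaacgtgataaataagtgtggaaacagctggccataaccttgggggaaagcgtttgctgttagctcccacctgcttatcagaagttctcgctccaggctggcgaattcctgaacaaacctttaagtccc
Mccc1 promoter window 1, chr3:36000629-36000928 (minus strand): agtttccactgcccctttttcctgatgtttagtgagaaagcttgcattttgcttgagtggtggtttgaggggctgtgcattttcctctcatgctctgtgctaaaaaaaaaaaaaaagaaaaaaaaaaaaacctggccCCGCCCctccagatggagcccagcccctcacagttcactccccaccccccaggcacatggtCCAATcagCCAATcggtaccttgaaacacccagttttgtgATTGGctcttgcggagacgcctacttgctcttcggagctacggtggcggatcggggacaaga

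The Mccc1 window held 3 CCAAT matches and 1 GC box match (GGGCGG), the second Bdh1 window held 1 GC box match, and the Bcat2 windows held neither. CCAAT occurred in 26 of the 42 windows of members, 61.9%, and in 37.4% of all 32851 windows. GGGCGG occurred in 20 of the 42, 47.6%, and in 35.7% of all windows. AAGGTCA, a half-site of oestrogen-related receptors (TGACCTT on the other strand), occurred in 2 of the 42, 4.8%, in Got1 and Ogdh, and in 4.7% of all windows. These are letter matches in a reference window and no binding was measured.

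Nuclear background was compared first, as C3Hn minus C57n at the same mitochondrial genome in the sham libraries of set B. With C57 mitochondria 12 of the 35 members passed the test, 11 higher and 1 lower in the C3H nucleus, where 31.9% of all 13395 genes passed, 15.9% higher and 16% lower. With C3H mitochondria 4 passed, 2 higher and 2 lower, where 19.4% of all genes passed, 10.6% higher and 8.78% lower. The shares of members called, 34.3% and 11.4%, were near and below these backgrounds. Bdh1, Bcat2 and Mccc1 were called in both, 13 members in at least 1 and 22 in neither. Leaving out library 2 raised the first count to 19, and leaving out library 23 raised the second to 8. The 2 comparisons share no library. Passing means an adjusted p below 0.05 (edgeR quasi-likelihood test), levels are log2 CPM, and differences are log2 fold changes with their standard error (SE).

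Bdh1, the ketone enzyme that turns D-beta-hydroxybutyrate into acetoacetate, had the largest differences of the members. Its level in C57n:C57mt was 6.03 at the lowest, 6.86 at the median and 7.19 at the highest (n = 6), and in C57n:C3Hmt 7.04, 7.31 and 7.46. In C3Hn:C57mt it was 8.18, 8.35 and 8.58, and in C3Hn:C3Hmt 7.58, 8.33 and 8.45. Each C3Hn library lay above every C57n library. The difference was 1.51 (SE 0.15, 2.85-fold, adjusted p = 1.66e-08) with C57 mitochondria and 0.92 (SE 0.15, 1.89-fold, adjusted p = 4.06e-05) with C3H mitochondria. With the L code as a covariate the second became 0.77 (adjusted p = 0.108). Oxct1, the transferase that activates acetoacetate, was called with C57 mitochondria at 0.36 (SE 0.10, adjusted p = 0.00653) and was 0.18 (adjusted p = 0.22) with C3H mitochondria. Acat1, which splits acetoacetyl-CoA, was 0.16 and -0.01 in the same order and was not called.

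Bcat2, the mitochondrial transaminase that starts branched-chain amino acid breakdown, was also higher in the C3H nucleus. Its lowest, median and highest levels were 5.93, 6.47 and 7.02 in C57n:C57mt and 6.32, 6.49 and 6.69 in C57n:C3Hmt. They were 7.35, 7.54 and 7.84 in C3Hn:C57mt and 6.82, 7.29 and 7.70 in C3Hn:C3Hmt. The groups compared did not overlap at either mitochondrial genome, although the lowest C3Hn:C3Hmt library lay below the highest C57n:C57mt one. Bcat2 differed by 0.99 (SE 0.16, adjusted p = 2.69e-05) with C57 mitochondria and by 0.80 (SE 0.16, adjusted p = 0.000441) with C3H mitochondria, and with the L code as a covariate the second became 0.61 (adjusted p = 0.24).

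Mccc1, the biotin-bearing subunit of methylcrotonyl-CoA carboxylase in leucine breakdown, went the other way. Its lowest, median and highest levels were 6.23, 6.55 and 6.88 in C57n:C57mt and 6.51, 6.63 and 6.74 in C57n:C3Hmt. They were 5.69, 6.10 and 6.17 in C3Hn:C57mt and 5.17, 5.80 and 6.21 in C3Hn:C3Hmt, so that each C3Hn library lay below every C57n library. The difference was -0.55 (SE 0.14, adjusted p = 0.00402) with C57 mitochondria and -0.83 (SE 0.14, adjusted p = 8.56e-05) with C3H mitochondria. With the L code as a covariate the first became -0.78 (adjusted p = 0.0845). Mccc2, the other subunit of the carboxylase, had medians of 5.76 in both C57n groups, 6.13 in C3Hn:C57mt and 5.87 in C3Hn:C3Hmt and was not called in either comparison.

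**Figure D1:**
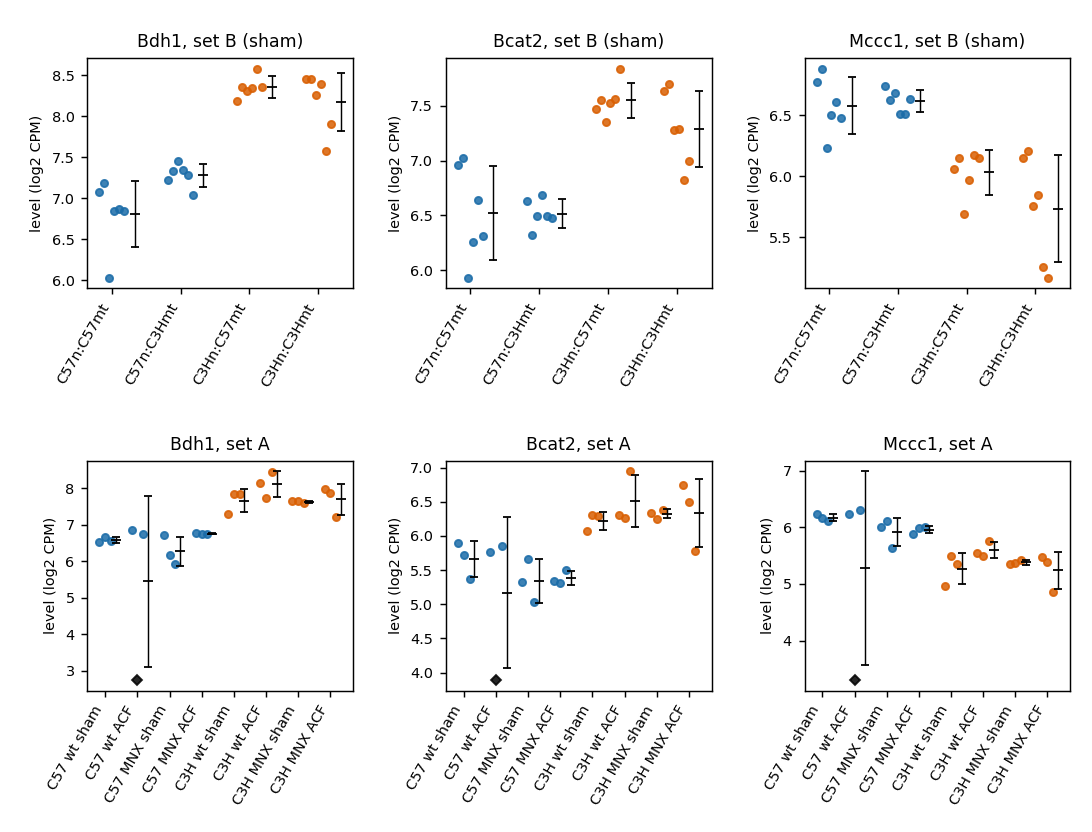
Levels (log2 CPM) of Bdh1, Bcat2 and Mccc1 by library in set B (top, 6 sham libraries a genotype) and set A (bottom, 3 libraries a group), with blue for C57 and orange for C3H nuclei or titles, and dashes with bars for the mean and SD. Bdh1 sits at 7.58 or above in the C3Hn libraries of set B and at 7.46 or below in the C57n ones, and the black diamond is library 489.

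The other calls with C57 mitochondria were spread over the roles. In the citrate cycle 3 of 12 members were called, all higher in the C3H nucleus: Ogdh and Dlst, the E1 and E2 subunits of the 2-oxoglutarate dehydrogenase complex, and Cs, citrate synthase. Ogdh ran from 10.76 to 11.35 with a median of 11.19 in C57n:C57mt, and from 11.49 to 11.89 with a median of 11.78 in C3Hn:C57mt. The 2 groups did not overlap, and the difference was 0.62 (SE 0.13, adjusted p = 0.000431). Dlst differed by 0.39 (adjusted p = 0.00431) and Cs by 0.33 (adjusted p = 0.0232). The medians of Ogdh with C3H mitochondria were closer, 11.46 in C57n:C3Hmt and 11.58 in C3Hn:C3Hmt. Of the 4 members of the malate-aspartate shuttle and anaplerosis, Got2, the mitochondrial aspartate aminotransferase, was called at 0.31 (adjusted p = 0.0335).

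In the branched-chain keto acid step Bckdhb and Dbt, the E1 beta and E2 subunits of the dehydrogenase complex, were called at 0.43 (adjusted p = 0.00937) and 0.44 (adjusted p = 0.00871). Bckdk, the kinase that inactivates the complex, was 0.02 (SE 0.09, adjusted p = 0.87), with medians of 6.33 in C57n:C57mt and 6.37 in C3Hn:C57mt. Auh, methylglutaconyl-CoA hydratase of leucine breakdown, was called at 0.42 (adjusted p = 0.0146). Mut, the methylmalonyl-CoA mutase that makes succinyl-CoA from the propionyl-CoA arm, ran from 6.18 to 6.83 with a median of 6.70 in C57n:C57mt and from 6.96 to 7.45 with a median of 7.39 in C3Hn:C57mt. These did not overlap, and Mut differed by 0.66 (SE 0.12, adjusted p = 0.000171). None of the 4 members of the isoleucine and valine arm was called with C57 mitochondria. With C3H mitochondria Acadsb, the short/branched-chain acyl-CoA dehydrogenase of that arm, differed by -0.30 (SE 0.09, adjusted p = 0.0253). Its medians were 7.21 in C57n:C3Hmt (7.08 to 7.33) and 6.92 in C3Hn:C3Hmt (6.63 to 7.14), with overlap, and the call was lost when library 23, 24 or 10 was left out.

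Set against all genes, the members lay slightly to the C3H side with C57 mitochondria: 34 of 35 were above 0, with a median of 0.24 against 0.01 over all genes. With C3H mitochondria 21 were above 0, and the medians were 0.05 and 0.02. With the L code as a covariate 30 were above 0 in the first comparison (median 0.23) and 10 in the second (median -0.16). The 2 groups of each comparison share no L code, so these values rest on codes shared with other groups. Leaving out library 19 or 20 also turned the second median, to -0.01 and -0.03. Beside the first comparison the 12 cardiomyocyte markers had a median of 0.19 with 2 called higher. Of the 9 macrophage markers 8 were called lower (median -0.97), of the 8 endothelial markers 3 (median -0.54) and of the 8 fibroblast markers 2 (median -0.42). Of the 6 smooth muscle and pericyte markers 2 were called higher and 2 lower. Summed macrophage markers ran from 86.4 to 232 CPM in C57n:C57mt and from 39.8 to 95.7 CPM in C3Hn:C57mt. Beside the second comparison 3 of the 8 fibroblast markers (median 0.54) and 1 of the 9 macrophage markers (median 0.44) were called higher, and no cardiomyocyte marker was called (median 0.10). Summed macrophage markers were 46.6 to 82.2 CPM in C57n:C3Hmt and 62.9 to 223 CPM in C3Hn:C3Hmt. Their part in the members' differences was not tested, and in bulk RNA fewer cells of a type and less RNA per cell cannot be told apart. Groups that did not overlap were found for 7 members with C57 mitochondria, 6 higher and 1 lower, where 8.41% and 6.33% of all genes did so. With C3H mitochondria they were found for Bcat2, Bdh1 and Mccc1, 2 higher and 1 lower, where 5.81% and 5.39% of all genes did so.

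The L code limits these counts, because the 2 groups of each nuclear comparison share no code. With it as a covariate 2 members were called with C57 mitochondria, Bdh1 (adjusted p = 0.000941) and Bcat2 at 1.01 (adjusted p = 0.0334), where 8.03% of all genes passed. With C3H mitochondria 2 were called, Mccc1 at -1.07 (adjusted p = 0.0113) and Acadsb at -0.63 (adjusted p = 0.0151), where 8.89% of all genes passed. Within code 2, C3Hn:C57mt could be compared with C57n:C3Hmt (4 libraries each), a comparison that changes nucleus and mitochondria together. There 15 members passed, where 30.1% of 12910 genes did. The libraries of this comparison are also part of the nuclear ones, in which Bdh1, Bcat2 and Mccc1 were called. Bdh1 was 1.00 (adjusted p = 4.48e-06) higher, Bcat2 0.97 (adjusted p = 2.15e-06) higher, and Mccc1 was -0.72 (adjusted p = 0.000107). Ogdh was 0.17 (adjusted p = 0.21) within code 2, and Mut 0.34 (adjusted p = 0.0154). Levels of some members also split by code inside 1 genotype. In C57n:C3Hmt the L8 libraries 7 and 8 had Mut at 6.50 and 6.52 and Ogdh at 11.18 and 11.16. Its L2 libraries had 6.82 to 6.94 and 11.45 to 11.59. Mccc1 split likewise, at 6.51 in both L8 libraries against 6.62 to 6.74, while Bdh1 and Bcat2 overlapped between the codes.

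The wild-type strains of set B, which differ in both genomes, gave 5 called members, where 22.6% of all genes passed. They were Bdh1 at 1.36 (SE 0.15, adjusted p = 1.12e-07), Mccc1 at -0.81 (SE 0.14, adjusted p = 0.000115), Bcat2 at 0.75 (SE 0.16, adjusted p = 0.000802), Mut at 0.42 (SE 0.12, adjusted p = 0.0144) and Ogdh at 0.35 (SE 0.12, adjusted p = 0.0405). Without library 23 there were 8. These libraries are also part of the nuclear comparisons. With the L code as a covariate none of the 5 passed: Bdh1 was 1.23 (adjusted p = 0.0514), Mccc1 -1.15 (adjusted p = 0.0536), and Mut turned to -0.14 (adjusted p = 0.86).

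**Figure D2:**
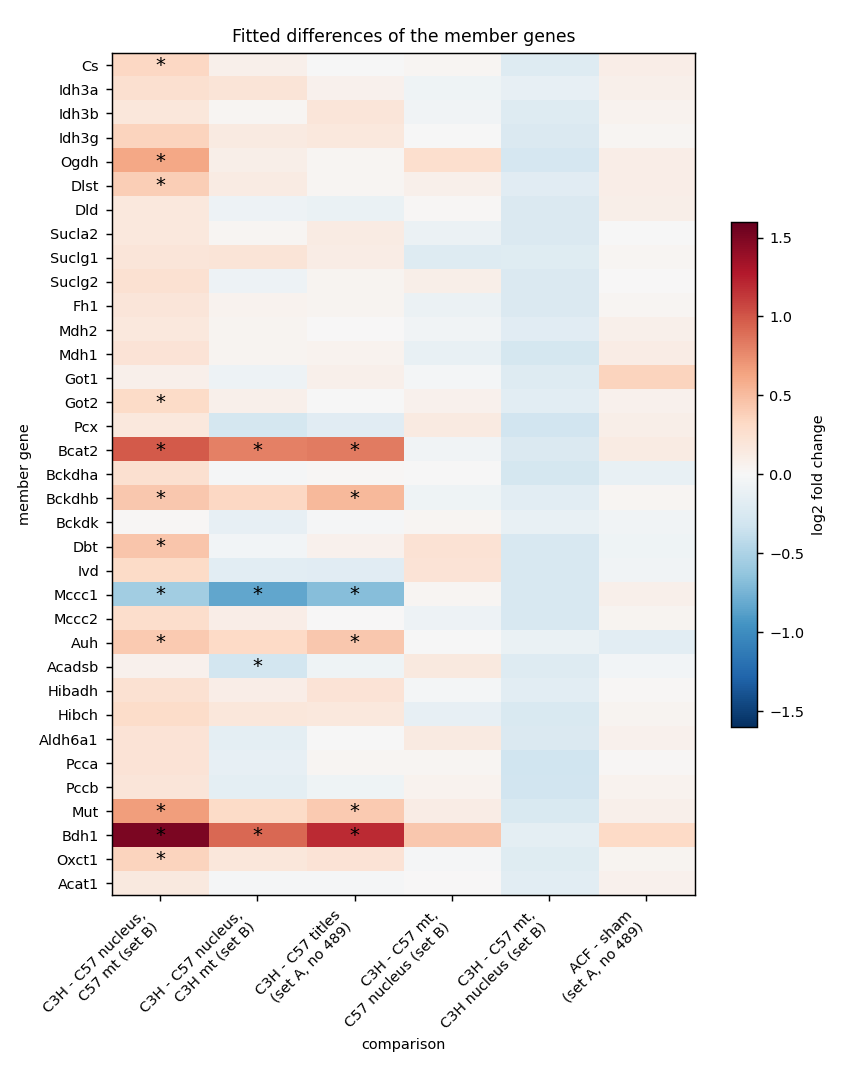
Fitted log2 fold changes of the 35 members (rows) in 6 comparisons (columns), red for higher in the group named first, and an asterisk for an adjusted p below 0.05. Asterisks fall in the 3 nuclear columns (12, 4 and 6 members) and in none of the mitochondrial or ACF columns.

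Set A, which holds other libraries, allowed the strain difference to be measured again. Over all 24 libraries, C3H titles minus C57 titles averaged over surgery and exchange, 4 members passed, where 21.4% of 13440 genes did, and without library 489 there were 6, where 27.3% of 13544 genes did. Adding the L code as a covariate gave 5, all higher, where 21.8% of genes did. This average was added after the values of set B were seen. Bdh1 was 1.32 (SE 0.27, adjusted p = 0.00138), or 2.49-fold, over all libraries. Leaving out library 489 made it 2.3-fold (adjusted p = 5.01e-08). Its sham levels were 6.53, 6.67 and 6.54 in C57_wt and 6.70, 6.17 and 5.93 in C57_MNX. They were 7.28, 7.84 and 7.83 in C3H_wt and 7.64, 7.64 and 7.59 in C3H_MNX, above every C57-titled sham library.

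Bcat2 was 0.92 (SE 0.17, adjusted p = 0.000569) over all libraries. Leaving out library 489 made it 0.83 (SE 0.11, adjusted p = 7.39e-06). Its sham levels were 5.90, 5.72 and 5.37 in C57_wt and 5.33, 5.67 and 5.03 in C57_MNX, and 6.07, 6.31 and 6.29 in C3H_wt and 6.34, 6.25 and 6.38 in C3H_MNX. Again no C57-titled sham library reached a C3H-titled one. Bckdhb was 0.59 (adjusted p = 0.0131) and 0.51 (adjusted p = 0.000751) without library 489, and Auh 0.51 (adjusted p = 0.0307) and 0.43 (adjusted p = 0.00193). Auh lost the call in 7 of the 24 fits that left out 1 library. Mccc1 was -0.58 (SE 0.21, adjusted p = 0.0534) over all libraries and was called without library 489, at -0.68 (SE 0.08, adjusted p = 1.21e-06). Mut was 0.52 (SE 0.22, adjusted p = 0.0938) over all libraries and was likewise called without library 489, at 0.42 (SE 0.09, adjusted p = 0.00143). Mccc1 sham levels were 6.24, 6.16 and 6.11 in C57_wt and 6.01, 6.11 and 5.63 in C57_MNX, and 4.96, 5.49 and 5.35 in C3H_wt and 5.35, 5.37 and 5.43 in C3H_MNX. Each C3H-titled sham library was below every C57-titled one. The share of all genes that separate the sham titles in this way was not counted.

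Split into the sham libraries of wild-type and of exchanged titles (3 against 3), 0 members passed in either, where 3.76% and 4.43% of all genes did; at an unadjusted p below 0.05 there were 1 and 2. Without library 489, an ACF library that enters these contrasts through the shared estimate of spread, 2 members passed in the wild types, where 6.49% of genes did, and 6 in the exchanged titles, where 10.3% did. In the wild types these were Bdh1 at 1.12 (adjusted p = 0.0016) and Mccc1 at -0.85 (adjusted p = 0.000967). With all libraries they had been 1.09 (adjusted p = 0.478) and -0.89 (adjusted p = 0.429). In the exchanged titles they were Bdh1 at 1.34 (adjusted p = 0.000262), Bcat2 at 0.99 (adjusted p = 0.00492), Bckdhb at 0.70 (adjusted p = 0.0289), Mut at 0.61 (adjusted p = 0.0287), Auh at 0.60 (adjusted p = 0.0423) and Mccc1 at -0.52 (adjusted p = 0.0338). With all libraries these were 1.32, 0.96, 0.68, 0.59, 0.57 and -0.55 in the same order, with adjusted p from 0.145 for Bcat2 to 0.586 for Mccc1. Library 6763 of C57_MNX sham was the lowest of its group for all 6. Without library 489 this comparison also called markers lower: 1 endothelial (median -0.81), 2 smooth muscle and pericyte (-0.95) and 1 macrophage (-0.52). The cardiomyocyte markers had a median of 0.30 with 0 called. Their part, and that of library 6763, was not tested.

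Exchange of the mitochondrial genome on a given nucleus was the second question. On the C57 nucleus of set B (C57n:C3Hmt minus C57n:C57mt) 0 members passed, where 0% of all genes did; 2 members had an unadjusted p below 0.05, and DESeq2 called 14 genes and 0 members. The members with the smallest p were Bdh1 at 0.43 (SE 0.15, adjusted p = 0.305), Ogdh at 0.26 (SE 0.12, adjusted p = 0.43) and Dbt at 0.23 (SE 0.13, adjusted p = 0.49). Bdh1 medians were 6.86 and 7.31, and 1 library of C57n:C57mt, at 6.03, lay well below the rest of its group. The median over members was 0.003, with 18 above and 17 below 0. With the L code as a covariate 0 members were called, 23 were above 0 and the median was 0.019. In the L8 libraries of C57n:C3Hmt Ogdh was 11.18 and 11.16, and Dbt 5.71 and 5.54. Its L2 libraries had 11.45 to 11.59 and 5.90 to 5.93. Bdh1 did not split so, at 7.35 and 7.28 against 7.04 to 7.46.

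On the C3H nucleus (C3Hn:C3Hmt minus C3Hn:C57mt) 0 members passed, where 0.00747% of all genes did; 5 members had an unadjusted p below 0.05, and DESeq2 called 6 genes and 0 members. All 35 differences were negative, from -0.32 to -0.11 with a median of -0.23, against 0.004 over all genes. The smallest p belonged to Pcca at -0.32 (SE 0.13, adjusted p = 0.476), Pcx at -0.31 (SE 0.13, adjusted p = 0.48) and Acadsb at -0.21 (SE 0.09, adjusted p = 0.51). Pcca, a propionyl-CoA carboxylase subunit, ran from 6.04 to 6.47 with a median of 6.43 in C3Hn:C57mt and from 5.54 to 6.47 with a median of 6.08 in C3Hn:C3Hmt. Pcx, the anaplerotic pyruvate carboxylase, had medians of 5.24 and 4.91 in the same order (4.88 to 5.45 and 4.39 to 5.22), with overlap for both genes. With the L code as a covariate 0 of the 35 differences were positive, and their median was -0.355.

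The shift on the C3H nucleus came with other shifts of cell type markers. The cardiomyocyte markers had a median of -0.15, the macrophage markers 0.74, the fibroblast markers 0.51 and the endothelial markers 0.31, none called; their part in the members' shift was not tested. The means over the 35 members were lowest in libraries 23 and 24, at 7.47 and 7.63, against 7.94 to 8.26 in the other 4 of C3Hn:C3Hmt. The direct test of whether the mitochondrial difference depended on the nucleus called 0 members and 0 genes; 8 members had an unadjusted p below 0.05, and DESeq2 called 315 genes and 0 members. Its smallest p belonged to Ogdh at -0.53 (SE 0.18, adjusted p = 0.138), Bdh1 at -0.59 (SE 0.21, adjusted p = 0.164) and Acadsb at -0.37 (SE 0.13, adjusted p = 0.168).

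In set A the exchanged minus wild-type titles in sham libraries called 0 members in C3H titles, where 0.0149% of all genes passed, and 0 in C57 titles, where 0% did; 0 members had an unadjusted p below 0.05 in either. Without library 489, where 0.0148% and 0% of genes passed, and with the L code as a covariate, the count was again 0 in both. Differences in C57 titles were negative for all 35 members, with a median of -0.24 both with and without library 489. Library 6763 of C57_MNX sham stood apart: its mean over the members was 6.69, against 7.23 and 7.38 in the other libraries of its group, and its mean over the cardiomyocyte markers 10.90, against 11.35 and 11.54. Without it 30 of 35 were negative and the median was -0.06. The cardiomyocyte markers had a median of -0.25 in this comparison, the endothelial markers 0.89 and the smooth muscle and pericyte markers 0.71, none called; their part in the members' shift was not tested. Bckdk was lowest in p there at -0.38 (SE 0.27, adjusted p = 0.99): its levels were 5.68, 5.48 and 5.27 in C57_wt and 5.14, 5.34 and 4.81 in C57_MNX, which overlap. Auh at -0.31 and Bcat2 at -0.31 followed. In C3H titles 28 of 35 differences were positive, with a median of 0.10 both with and without library 489. The direction turned with the L code as a covariate, where 0 of 35 were positive and the median was -0.60, and without library 482 the median was 0.01. The fit with the L code kept library 489, which shares its code only with library 482. Bckdk was 0.21 (SE 0.27, adjusted p = 1), from 5.04, 5.06 and 5.07 in C3H_wt to 5.29, 5.21 and 5.30 in C3H_MNX, a gap with no overlap that 5.65% of all genes showed in this direction, 4 members among them. Idh3g and Idh3b, subunits of the NAD-dependent isocitrate dehydrogenase, were 0.23 and 0.20.

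**Figure D3:**
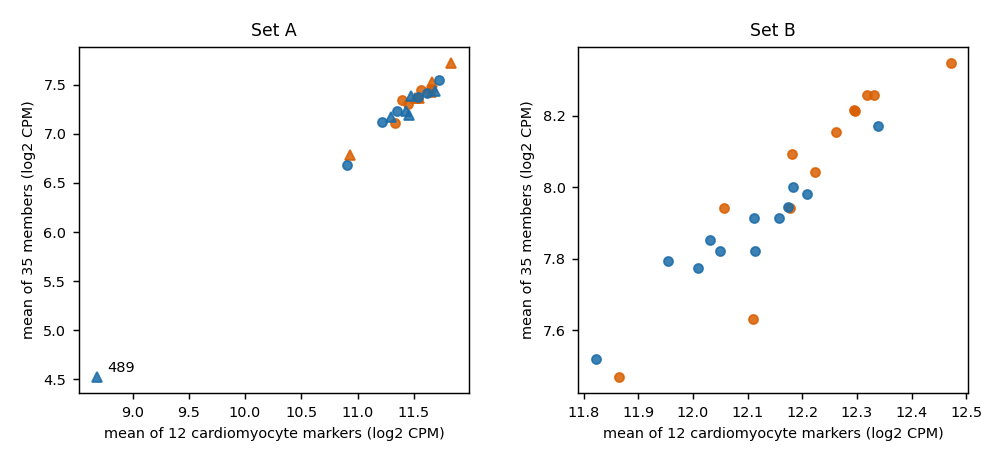
Mean level of the 35 members against the mean of 12 cardiomyocyte markers (both log2 CPM) in each library of set A (left) and set B (right), with blue for C57 and orange for C3H nuclei or titles, circles for sham and triangles for ACF. Library 489 lies at 8.68 and 4.52; in set B library 23 is low in member mean for its genotype at 11.86 and 7.47, and library 24 is too, at 12.11 and 7.63, with cardiomyocyte markers in the middle of the set's range.

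ACF was the third question, answered in set A. The mean ACF effect over the 4 title prefixes called 0 of the 35 members, where 0.275% of all genes passed, and 0 without library 489, where 0.923% did; at an unadjusted p below 0.05 there were 0 and 2, and DESeq2 called 241 genes and 0 members over all libraries. No member passed in any single prefix, where at most 0.00744% of all genes did (0.509% in C3H_wt and 0.00738% or less in the others without library 489), or in any alternative run. The direction of the set turned on 1 library: 32 of 35 differences were negative (median -0.07), and without library 489, 28 were positive (median 0.06). Only 1 was positive (median -0.22) with the L code as a covariate and all libraries.

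Without library 489 the members with the smallest p were Bdh1 at 0.31 (SE 0.11, adjusted p = 0.197) and Got1 at 0.35 (SE 0.14, adjusted p = 0.284), followed by Auh at -0.17 (SE 0.09, adjusted p = 0.5). Bdh1 was 0.17 (adjusted p = 0.876) with library 489. With it the smallest p belonged to Auh at -0.28 (SE 0.16, adjusted p = 0.57), Bckdk at -0.16 (SE 0.14, adjusted p = 0.74) and Bckdha at -0.25 (SE 0.22, adjusted p = 0.74). Bdh1 ACF levels were 6.85 and 6.75 in C57_wt beside 2.74 in library 489, 6.78, 6.75 and 6.73 in C57_MNX, 8.15, 7.73 and 8.44 in C3H_wt, and 7.98, 7.87 and 7.21 in C3H_MNX. The C3H-titled ACF libraries were thus above the C57-titled ones, as in sham. Auh ACF levels were 4.94 and 4.97 in C57_wt beside 2.98 in library 489, 4.48, 4.69 and 4.73 in C57_MNX, 5.27, 5.18 and 5.37 in C3H_wt, and 5.49, 5.14 and 4.62 in C3H_MNX.

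In C3H_wt 31 of 35 differences were positive, with a median of 0.22 (0.21 without library 489, 0.10 without library 486). The direction turned with the L code as a covariate, where 0 of 35 were positive and the median was -0.53. That fit kept library 489, which shares its code only with library 482 of C3H_wt sham. In C3H_wt 5 members had groups that did not overlap, all higher with ACF, where 12.9% of all genes did so in that direction. Got1, the cytosolic aspartate aminotransferase of the malate-aspartate shuttle, had the smallest p: its levels were 8.67, 8.95 and 8.81 in sham and 9.40, 9.14 and 10.17 in ACF. It differed by 0.83 (SE 0.53, adjusted p = 0.82). Leaving out library 489 made this 0.82 (SE 0.28, adjusted p = 0.193). Mdh1, the cytosolic malate dehydrogenase of the same shuttle, was 9.86, 10.10 and 9.99 in sham and 10.42, 10.29 and 10.67 in ACF, a difference of 0.48 (SE 0.51, adjusted p = 0.91), or 0.47 (SE 0.24, adjusted p = 0.412) without library 489. Got1 was -0.16 and Mdh1 -0.38 in that fit with the L code. The cardiomyocyte markers had a median of 0.28 in this comparison, and their part was not tested.

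In C57_wt all 35 differences were negative (median -0.44) with library 489, and 25 were positive (median 0.05) without it. Bckdk at -0.63 (SE 0.27, adjusted p = 0.298) had the smallest p, with 5.68, 5.48 and 5.27 in sham and 5.11, 5.35 and, in library 489, 3.58 in ACF; without that library the difference was -0.24 (SE 0.16, adjusted p = 1). In C57_MNX the median was 0.06 (0.07 without library 489), with 27 of 35 above 0, and without library 6763 it was -0.13, with 5 above 0. Bdh1 was 0.45 (SE 0.54, adjusted p = 1) from 6.70, 6.17 and, in library 6763, 5.93 in sham to 6.78, 6.75 and 6.73 in ACF. Dlst, at 0.25, and Auh, at -0.18, came next in p. In C3H_MNX the median was -0.13 with and without library 489, with 32 of 35 below 0. Library 6756 of C3H_MNX ACF stood apart: its mean over the members was 6.79, against 7.53 and 7.37 in the other libraries of its group, and its mean over the fibroblast markers 6.01, against 3.98 and 4.52. Without it 26 of 35 were above 0 (median 0.05), and with the L code as a covariate 29 were (median 0.10). The fibroblast markers had a median of 0.74 in this comparison, the endothelial markers 0.70 and the cardiomyocyte markers -0.11, none called, and their part was not tested. Bckdha, the E1 alpha subunit of the branched-chain complex, was -0.29 (SE 0.44, adjusted p = 1), from 6.94, 6.98 and 6.93 in sham to 7.07, 6.43 and 6.37 in ACF.

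Whether ACF acted differently in exchanged and wild-type titles was tested as a difference of differences, and 0 members and 0 genes passed for either nucleus, with or without library 489. In C57 titles all 35 were positive (median 0.55), and 21 (median 0.04) without library 489. In C3H titles all 35 were negative (median -0.36, and -0.35 without library 489), led by Got1 at -0.70 (SE 0.74, adjusted p = 0.96), Acadsb at -0.47 and Mdh1 at -0.58. Without library 6756 of C3H_MNX ACF, 33 were negative and the median was -0.16. The C3H differences were all positive with the L code as a covariate, with a median of 0.63. That fit kept library 489, which shares its code only with library 482 of C3H_wt sham. The cardiomyocyte markers had a median of -0.38 in the C3H contrast, the endothelial markers 1.00 and the smooth muscle and pericyte markers 1.17, none called, and their part was not tested.

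**Figure D4:**
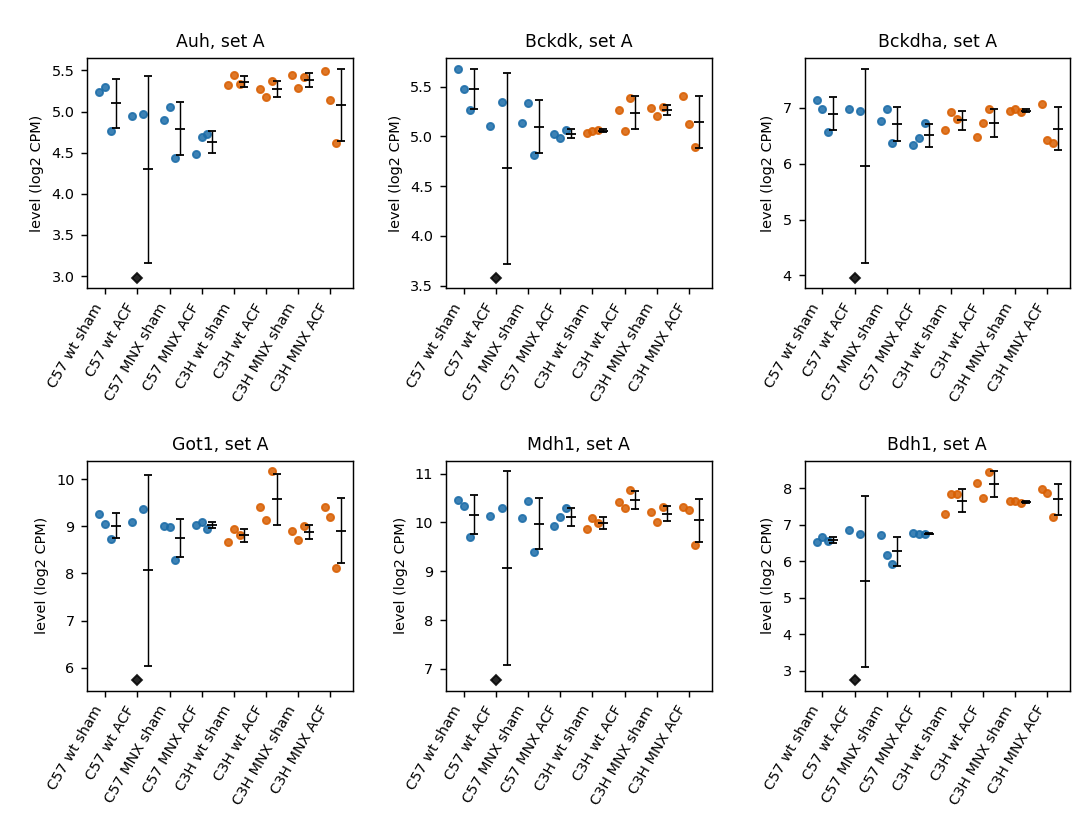
Levels (log2 CPM) of 6 members by library in the 8 groups of set A (3 libraries each), with blue for C57 and orange for C3H titles, dashes with bars for the mean and SD, and a black diamond for library 489. Sham and ACF libraries of a prefix overlap in most panels. In C3H_wt they do not for Got1, at most 8.95 in sham and at least 9.14 in ACF, or for Mdh1, at most 10.10 and at least 10.29.

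A list of 60 other genes of these pathways, 58 of them tested, was read beside the members. With C57 mitochondria 12 were higher and 5 lower in the C3H nucleus, and with C3H mitochondria 6 were higher and 5 lower. These are 29.3% and 19% of the 58, near the 31.9% and 19.4% of all genes. Abat, the GABA transaminase that also acts in valine breakdown, was 1.07 (adjusted p = 5.68e-07) and 0.60 (adjusted p = 0.00136) higher, with medians of 4.05 and 4.33 in the C57n groups and 4.99 and 4.90 in the C3Hn groups. Me2, the mitochondrial NAD-dependent malic enzyme, was 0.70 and 0.66 higher (adjusted p = 3.06e-06 and 9.37e-06), with medians of 2.81 and 2.83 against 3.43 and 3.47. In set A, C3H against C57 titles, 3 were higher and 4 lower, 12.1% of the 58 where 21.4% of all genes passed. Without library 489, 9 were higher and 7 lower, 27.6% where 27.3% of all genes passed. Abat was 1.01 higher (0.97 without library 489) and Me2 0.70 (0.81).

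Slc25a13, an aspartate-glutamate carrier of the malate-aspartate shuttle, was 0.71 (adjusted p = 5.79e-05) higher in the C3H nucleus with C57 mitochondria. Slc43a1, an amino acid transporter, was -1.06 (adjusted p = 0.0278) in the same comparison, at levels near 0 log2 CPM, a call lost in 6 of 24 fits that left out 1 library. Pdk4, the kinase that restrains pyruvate dehydrogenase, was 0.63 (adjusted p = 0.0397) with C3H mitochondria and 1.11 (adjusted p = 0.0118) in C3H against C57 titles of set A, or 1.01 (adjusted p = 0.00508) without library 489. The first lost its call in 9 of 24 such fits, and with the L code as a covariate it was -0.32. Klf15, a transcription factor of branched-chain amino acid breakdown, was 0.39 (adjusted p = 0.065) with C57 mitochondria and -0.59 (adjusted p = 0.00854) with C3H mitochondria, with medians of 4.61 and 4.92, then 5.10 and 4.58. Its interaction was -0.98 (SE 0.23, adjusted p = 0.082). Ppm1k, the phosphatase that activates the branched-chain complex, was 0.02 and -0.28 and was not called.

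Mitochondrial exchange in set B called 0 of the 58. The mean ACF effect called 0, and 1 without library 489: Slc16a1, a transporter of lactate and ketone bodies, at 0.35 (adjusted p = 0.0194), which was 0.25 (adjusted p = 0.556) with it. Pdp1, a pyruvate dehydrogenase phosphatase, was the other ACF call in the list, -0.65 (adjusted p = 0.0404) in C3H_wt without library 489 and -0.64 (adjusted p = 0.661) with it.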

How the data were processed

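RNA from 48 cardiomyocyte samples was analysed from 1 deposited table that the authors left unnormalized. The values are expected counts as deposited by the authors, estimated with RSEM per the submitters' processing notes, one row to a gene symbol, and 13.9% were not whole. Per the submitters' processing notes CASAVA 1.8.2, Bowtie, RSEM 1.2.0 and build mm9 were used, while per the labels' protocols a provider's own algorithm mapped the reads, so which made the table is not settled. The kit was stranded, per the labels' protocols; how strand was used in counting is not given in the sources used here. RSEM divides reads shared by similar genes.

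Counts were rounded and tested in R 4.3.3 with edgeR 4.0.16 (quasi-likelihood F test, TMM, edgeR's filter by group, Benjamini-Hochberg adjustment over all genes tested, threshold 0.05). Sets A and B were fitted separately with all their groups, so levels (log2 CPM, prior count 2) are not comparable between sets. The SE is the log2 fold change over the square root of F. The fit was checked on simulated counts. No replicate pair agreed within sampling noise (lowest chi-square per degree of freedom 4.04). The score for nuclear background used genes with a gap over 1.5 and a mean of at least 1 log2 CPM, chosen after seeing the data.

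For each comparison up to 4 called members with the largest change were named, or 3 with the smallest p where none was called, with Bckdk, Ppm1k, Klf15, Pdk4, Bdh1, Oxct1 and Cs always named; other called members may be named, and up to 4 other pathway genes. Some genes that this rule names are not reported here. The members and lists were chosen with earlier results of these data known. Alternatives were DESeq2 1.42.0, its size factors, no filter, the L code as a covariate, only the groups compared, leaving out the 6 most abundant genes, each library, or libraries 489 and 6756, and pooling both sets' wild types. The fits without library 489, the comparison within L code 2 and the C3H-title average were added after seeing the data.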

Additional observations from a re-analysis of the deposited data

Results flagged for a closer look

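In set B, 18 genes were examined in 4 groups of 6 libraries, 72 in all, for a library far from its group, and 6 stood out; chance gives about 1 in 20. Bdh1 was 6.03 log2 CPM in library 3 of C57n:C57mt, where the next lowest was 6.84. Pcx was 4.74 in the same library, and the next was 5.05. Mut was 6.18 in library 1 of C57n:C57mt, and the next was 6.64. Pdk4 was 9.38 in library 5 of C57n:C57mt, above the next highest of 8.81. In C3Hn:C57mt library 15 was lowest for Dbt, at 5.68 with the next at 5.98, and for Pcca, at 6.04 with the next at 6.32.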

How the results depend on the processing

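No paired analysis was possible because no replicate number was shared between the groups compared. Counts of called members moved by over 1.5 times with the L code as a covariate, without library 2, 23 or 489, without libraries 489 and 6756, with the compared groups alone and with both sets' wild types pooled; DESeq2, its size factors, no filter and leaving out the 6 most abundant genes kept every count of called members within 1.5 times. The cause was not tested. A p that misses the threshold with 3 libraries a group does not show that levels were equal.

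With the L code as a covariate, members called went to 2 with C57 mitochondria, 2 with C3H mitochondria and 0 in the wild types of set B. Genes called went to 1075, 1191 and 578 in the same order, to 30 for mitochondria on the C3H nucleus, 2 for the interaction, 279 and 309 for the sham wild-type and exchanged titles of set A, 0 for exchange in C3H titles and 0 for ACF in C3H_MNX. Gene values that changed sign were, for exchange in C3H titles, Bckdk -0.24, Idh3g -0.37 and Idh3b -0.48; for ACF in C3H_wt, Got1 -0.16, Mdh1 -0.38 and Bcat2 -0.25; for the ACF difference in C3H titles, Got1 0.67, Acadsb 0.43 and Mdh1 0.57; and in set B Pdk4 -0.32 with C3H mitochondria and Mut -0.14 in the wild types. The members' median turned, too, for exchange in C3H titles (0.10 to -0.60), ACF in C3H_wt (0.22 to -0.53) and in C3H_MNX (-0.13 to 0.10), the ACF difference in C3H titles (-0.36 to 0.63), the sham wild types of set A (-0.13 to 0.47) and, in set B, the nucleus with C3H mitochondria (0.05 to -0.16) and the wild types (0.004 to -0.13). The set A fits with the L code kept library 489, which shares its code only with library 482 of C3H_wt sham. The groups of these 2 set B comparisons share no L code.

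DESeq2 called 14 and 6 genes for mitochondria on the C57 and C3H nucleus and 315 for the interaction, 7 for exchange in C3H titles, 241 for the mean ACF effect, 139, 76, 1 and 3 for ACF in C57_wt, C3H_wt, C57_MNX and C3H_MNX, and 1 for the ACF difference in C3H titles. Without libraries 489 and 6756, members called were 3 and 7 for the sham wild-type and exchanged titles and 8 for C3H against C57 titles, and genes 1075, 1909 and 4451; genes were 344 for the mean ACF effect and 1, 192 and 2 for ACF in C57_wt, C3H_wt and C3H_MNX. With the compared groups alone, 2 members were called in each sham comparison of titles, with 991 genes in the exchanged one; genes were 1 and 3 for mitochondria on the C57 and C3H nucleus and 0 for ACF in C3H_MNX. Pooling both sets' wild-type sham libraries called 4 members and 2601 genes.

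Leaving out 1 library at a time, members called ran from 0 to 2 for set A wild-type strains, sham, from 0 to 6 for set A exchanged titles, sham, from 10 to 19 for the set B nucleus with C57 mitochondria, from 3 to 8 for the set B nucleus with C3H mitochondria, from 4 to 8 for set B wild-type strains. The highest counts came without library 2 (with C57 mitochondria), 23 (with C3H mitochondria and in the wild types of set B) and 489 (set A). Genes called ran from 325 to 879 for set A wild-type strains, sham, from 379 to 1394 for set A exchanged titles, sham, from 1 to 2 for set A exchange in C3H titles, sham, from 12 to 174 for ACF mean over the 4 title prefixes, from 0 to 874 for ACF in C57_wt, from 0 to 69 for ACF in C3H_wt, from 0 to 1 for ACF in C3H_MNX, from 0 to 2 for set B mitochondria on the C57 nucleus, from 0 to 422 for set B mitochondria by nucleus interaction.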
